A study of Mus musculus with 230 samples.

Results

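The data described here are the expression levels of 8 mouse genes, the oncostatin M receptor gene Osmr and 7 genes linked to injury and inflammation, Socs3, Arid5a, Lcn2, Adamts1, Steap4, Bst1 and Casp4. They are 8 of 43346 gene identifiers in the count tables, and all 8 passed the filter on low counts, which left 18927 genes. The study sequenced RNA from 45 male mice of the C57BL/6J strain (230 libraries), with 6 brain regions sampled: the basolateral amygdala (BLA), caudate putamen (CPu), nucleus accumbens (NAc), prefrontal cortex (PFC), ventral hippocampus (vHipp) and ventral tegmental area (VTA). The mice had self-administered cocaine or saline, and the first letter of each condition gives that history. After 30 d of withdrawal, CC mice (n = 7) had a cocaine history and received 1 cocaine injection in the self-administration setting, SC mice (n = 8) had a saline history and the same cocaine injection, CS mice (n = 6) had a cocaine history and a saline injection, and SS mice (n = 8) had a saline history and a saline injection, with tissue taken 1 h later. C24 mice (n = 8, cocaine history) and S24 mice (n = 8, saline history) were sampled after 24 h of withdrawal with no injection. No batch, date or age is given in the labels, and each mouse number occurs under 1 condition with 4 to 6 regions.

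The genes were selected on values of these same mice: Osmr, Adamts1, Steap4, Bst1 and Casp4 were called higher in CS than in SS, and Adamts1, Bst1 and Arid5a higher in CC than in SS, in a fit over all libraries that held the mouse as a block. Socs3 and Lcn2 were called in neither. In those 2 choosing fits 7 genes (0.037% of those tested) and 6 genes (0.0317%) were called higher. The member nearest the threshold in CS minus SS was Adamts1 (log2 difference 0.45), and the first gene outside it was Plac8 (1.47). In CC minus SS the last gene inside was Sik1 (0.25) and the first outside was Fosl2 (0.33). Differences of CS or CC mice from SS mice are therefore given as descriptions, with no test.

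Oncostatin M belongs to the interleukin-6 cytokine family. It binds the product of Osmr together with the shared chain gp130 (Il6st), and the pair activates JAK kinases and the transcription factor STAT3. Socs3 is a STAT3 target whose product shuts the receptor complex off. Oncostatin M signalling is known from reactive astrocytes and from blood vessel endothelium in inflamed tissue.

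Osmr lies on chromosome 15 at 6813577 to 6874969 (mm10, minus strand). Socs3 lies on chromosome 11 at 117966079 to 117970047, Arid5a on chromosome 1 at 36307733 to 36324029, Lcn2 on chromosome 2 at 32384633 to 32388252 and Adamts1 on chromosome 16 at 85793827 to 85803113. Steap4 and Bst1 are both on chromosome 5, at 7960457 to 7982213 and 43818885 to 43843986, and Casp4 is on chromosome 9 at 5308828 to 5336783. All are protein-coding in GENCODE M21. Bst1 overlaps Fbxl5 on the opposite strand. The strand setting of the counting is not given in the sources used here, and Fbxl5 held 624201 counts in all libraries together against 3824 for Bst1, so the Bst1 level is uncertain. Library totals ran from 11866570 to 42135683 counts. Over the libraries Osmr had 64 to 718 counts, Socs3 13 to 514 (median 53) and Lcn2 11 to 1965 (median 244). Steap4, Bst1 and Casp4 had medians of 18.5, 14 and 12 counts, so their values in a single library carry large counting error. Levels are CPM, counts scaled to a common library size (TMM).

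Because the members move together across mice, the stretch before their starts was searched for the STAT motif (TTC, any 3 bases, GAA) and, by name, for the kB motif, each on both strands. Promoter windows of 250 bases from RefSeq (GRCm38.p6) were held for 7 of the 8 genes, all but Bst1. The STAT motif was found before Steap4 and Socs3, 2 of 7 genes, against 8.13% of 27025 genes (7.02% of all 32851 windows). The kB motif was found before Steap4 and Casp4, 2 of 7 genes, against 8.23% of genes (7.25% of all windows). The 3 stretches that hold a match are shown from the 5′ end, cut where the first GENCODE exon begins, with the matches in capitals. The Steap4 stretch is chr5:7960222-7960456 on the plus strand. The Casp4 stretch is chr9:5308599-5308827 on the plus strand and holds 2 overlapping kB matches as 1 run of capitals. The Socs3 stretch is chr11:117969452-117969616 on the minus strand, inside an intron of a longer GENCODE transcript of the gene.
Steap4: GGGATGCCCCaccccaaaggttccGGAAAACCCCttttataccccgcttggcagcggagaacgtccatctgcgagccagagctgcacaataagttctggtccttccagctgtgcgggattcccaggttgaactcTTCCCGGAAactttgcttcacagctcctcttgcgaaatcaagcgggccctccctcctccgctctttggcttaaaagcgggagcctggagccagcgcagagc
Casp4: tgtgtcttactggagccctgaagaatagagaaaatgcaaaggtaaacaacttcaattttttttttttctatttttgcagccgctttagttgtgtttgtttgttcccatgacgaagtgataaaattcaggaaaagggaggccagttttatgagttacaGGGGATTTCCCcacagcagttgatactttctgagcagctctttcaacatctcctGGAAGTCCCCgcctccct
Socs3: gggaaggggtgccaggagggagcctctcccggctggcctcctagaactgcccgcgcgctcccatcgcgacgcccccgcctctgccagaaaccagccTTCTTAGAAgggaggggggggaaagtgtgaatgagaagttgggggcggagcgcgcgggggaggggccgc
These are matches of letters and show no binding.

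For most of the 8 genes 3 mice with a cocaine history at 30 d stood apart: mouse-115 of CC, and mouse-111 and mouse-151 of CS. They were singled out after their values were seen, and they are not a group of the study. For each mouse a log2 value was formed as the mean over its regions of log2 CPM relative to the regional mean. Mouse-115 had the highest value of the 45 mice for 7 of the 8 genes and the second highest for Steap4. Mouse-111, mouse-151 and mouse-115 together held the top 3 places for 6 of the 8 genes, against 218 of the 18927 genes (1.15%), a share that cannot be read as support because the mice were named from these genes. The exceptions were Bst1, where mouse-012 of CC took the second place, and Casp4, where mouse-203 of C24 ranked 3.

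**Figure D1:**
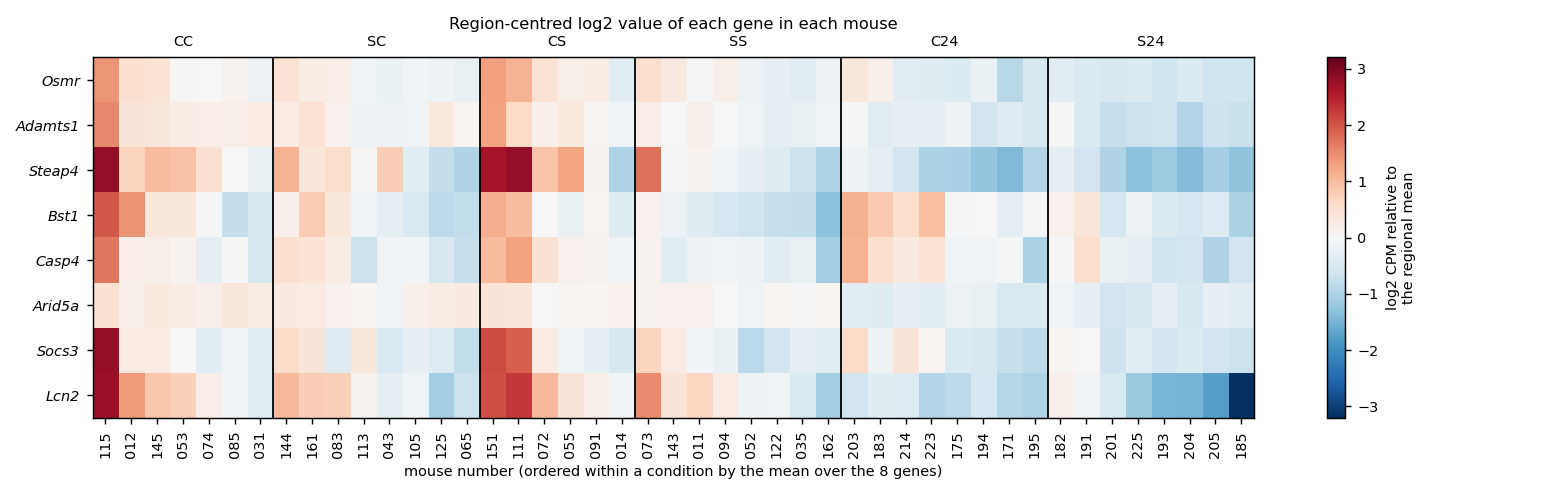
Heat map of the region-centred log2 value (colour, log2 CPM relative to the regional mean) of the 8 genes (rows) in each of the 45 mice (columns, grouped by condition and ordered within it by the mean over the 8 genes). Mouse-115 of CC and mouse-151 and mouse-111 of CS are red in nearly every row, with Socs3 at 2.78, 2.08 and 1.92, and most S24 mice are blue for Steap4 and Lcn2.

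Mouse means of CPM depend on which regions a mouse has, while the log2 values are relative to the regional mean. Osmr, the receptor itself, had mouse means (over the regions of a mouse) of 7.71 to 23.2 CPM in CC (median 9.27) against 7.59 to 12.7 CPM in SC (median 8.18). In CS they were 6.86 to 21.8 CPM (median 11.4), against 7.26 to 12.98 CPM in SS (median 7.98). C24 mice had 4.89 to 11.5 CPM (median 6.86), against 5.27 to 6.77 CPM in S24 (median 6.27). The cocaine and saline histories overlapped in each pair, and mouse-115, mouse-151 and mouse-111 had 23.2, 21.8 and 19.0 CPM while no other mouse passed 12.98 CPM. In mouse-115 Osmr was at 17.8 CPM in the BLA, 28.0 in the CPu, 21.1 in the NAc, 24.2 in the PFC, 24.5 in the vHipp and 23.4 in the VTA. Mouse-111 had 18.3, 19.1, 15.01, 19.7 and 22.9 CPM in the BLA, CPu, NAc, PFC and vHipp, and mouse-151 had 26.3, 22.7, 23.4, 20.3 and 16.5 CPM in the same regions. Mouse-115 and mouse-111 were among the 3 highest libraries in every region they had, and mouse-151 in 4 of 5, all but the vHipp, where SS and SC libraries reached 21.7 and 20.03 CPM. Neither CS mouse had a VTA library.

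Socs3, the STAT3-induced inhibitor of the receptor complex, ranged from 2.02 to 17.4 CPM over CC mice (median 2.49) against 1.61 to 4.50 CPM in SC (median 2.29). CS mice had 1.89 to 11.7 CPM (median 2.68), against 1.31 to 4.55 CPM in SS (median 2.20). At 24 h C24 mice had 1.37 to 3.66 CPM (median 2.33) and S24 mice 1.53 to 2.77 CPM (median 1.86). Mouse-115, mouse-151 and mouse-111 had 17.4, 11.7 and 10.3 CPM, and every other mouse was at 4.55 CPM or less. Across regions Socs3 was at 13.7 to 20.1 CPM in mouse-115, 8.60 to 11.8 CPM in mouse-111 and 7.37 to 15.1 CPM in mouse-151. Arid5a, an RNA-binding protein gene whose product stabilises interleukin-6 and Stat3 transcripts, varied little: 14.7 to 19.2 CPM in CC (median 16.1) against 13.5 to 17.98 in SC (median 15.9), and 13.0 to 18.3 CPM in CS (median 14.8) against 12.3 to 15.1 in SS (median 14.4). C24 mice had 9.66 to 11.8 CPM (median 10.6) and S24 mice 8.95 to 12.2 CPM (median 10.7). The same 3 mice headed the order, at 19.2, 18.3 and 18.2 CPM, but within reach of other mice.

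Lcn2 encodes lipocalin 2, a secreted iron-siderophore carrier and a marker of reactive astrocytes. CC mice had 8.73 to 80.1 CPM (median 21.7) against 5.44 to 28.3 CPM in SC (median 13.03). In CS the range was 10.2 to 55.6 CPM (median 21.4) against 9.90 to 33.9 CPM in SS (median 14.2). C24 mice lay close together, at 6.41 to 9.65 CPM (median 8.08), while S24 mice spread from 1.24 to 13.96 CPM (median 4.68). The ranges overlapped in all 3 pairs. Its highest library was the BLA of mouse-115, at 112 CPM, and the regions of that mouse ran down to 58.8 CPM in the NAc. Mouse-073 of SS, with 33.9 CPM, was the next mouse after the 3.

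Steap4, a metalloreductase gene of membranes that belongs to the pan-reactive astrocyte set, reached 7.38 CPM in mouse-115, 7.22 in mouse-111 and 6.18 in mouse-151. The CC mice had a median of 1.55 CPM (lowest 0.846), against 0.532 to 2.84 CPM in SC (median 1.27). The CS mice had a median of 3.23 CPM (lowest 0.451), against 0.652 to 3.68 CPM in SS (median 0.951). C24 and S24 mice were lower, at 0.314 to 0.989 CPM (median 0.539) and 0.329 to 1.27 CPM (median 0.410). Adamts1, a secreted metalloprotease gene that acts on extracellular matrix, was at 15.7 to 41.9 CPM in CC (median 17.9) against 12.8 to 20.9 in SC (median 17.4), at 12.8 to 33.3 CPM in CS (median 20.2) against 12.4 to 18.9 in SS (median 14.9), and at 9.45 to 15.4 CPM in C24 (median 11.9) against 8.18 to 14.7 in S24 (median 9.52). Mouse-115 and mouse-151 were its 2 highest mice. Mouse-111 and mouse-053 of CC both had 21.9 CPM, but over different regions. Mouse-053 had a VTA and no BLA library, and mouse-111 the reverse. Relative to the regional mean they stood at 0.63 (rank 3 of 45) and 0.23 (rank 11).

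Bst1 encodes CD157, a surface enzyme related to CD38. Its mouse means were 0.373 to 2.60 CPM in CC (median 0.791) against 0.273 to 1.14 in SC (median 0.544), and 0.426 to 1.30 CPM in CS (median 0.605) against 0.226 to 0.641 in SS (median 0.377). At 24 h they were 0.4996 to 1.61 CPM in C24 (median 0.794) against 0.227 to 0.808 in S24 (median 0.455). The C24 median lay beside that of CC. Casp4 encodes an inflammatory caspase that senses cytosolic lipopolysaccharide. It had 0.359 to 1.87 CPM in CC (median 0.601) against 0.315 to 0.847 in SC (median 0.495), 0.457 to 1.37 CPM in CS (median 0.675) against 0.215 to 0.561 in SS (median 0.455), and 0.239 to 1.20 CPM in C24 (median 0.600) against 0.250 to 0.867 in S24 (median 0.371). In the other conditions too 1 mouse tended to lead: by its log2 value mouse-073 was the highest SS mouse for 7 of the 8 genes, mouse-203 the highest C24 mouse for 6, mouse-182 the highest S24 mouse for 6 and mouse-144 the highest SC mouse for 5.

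**Figure D2:**
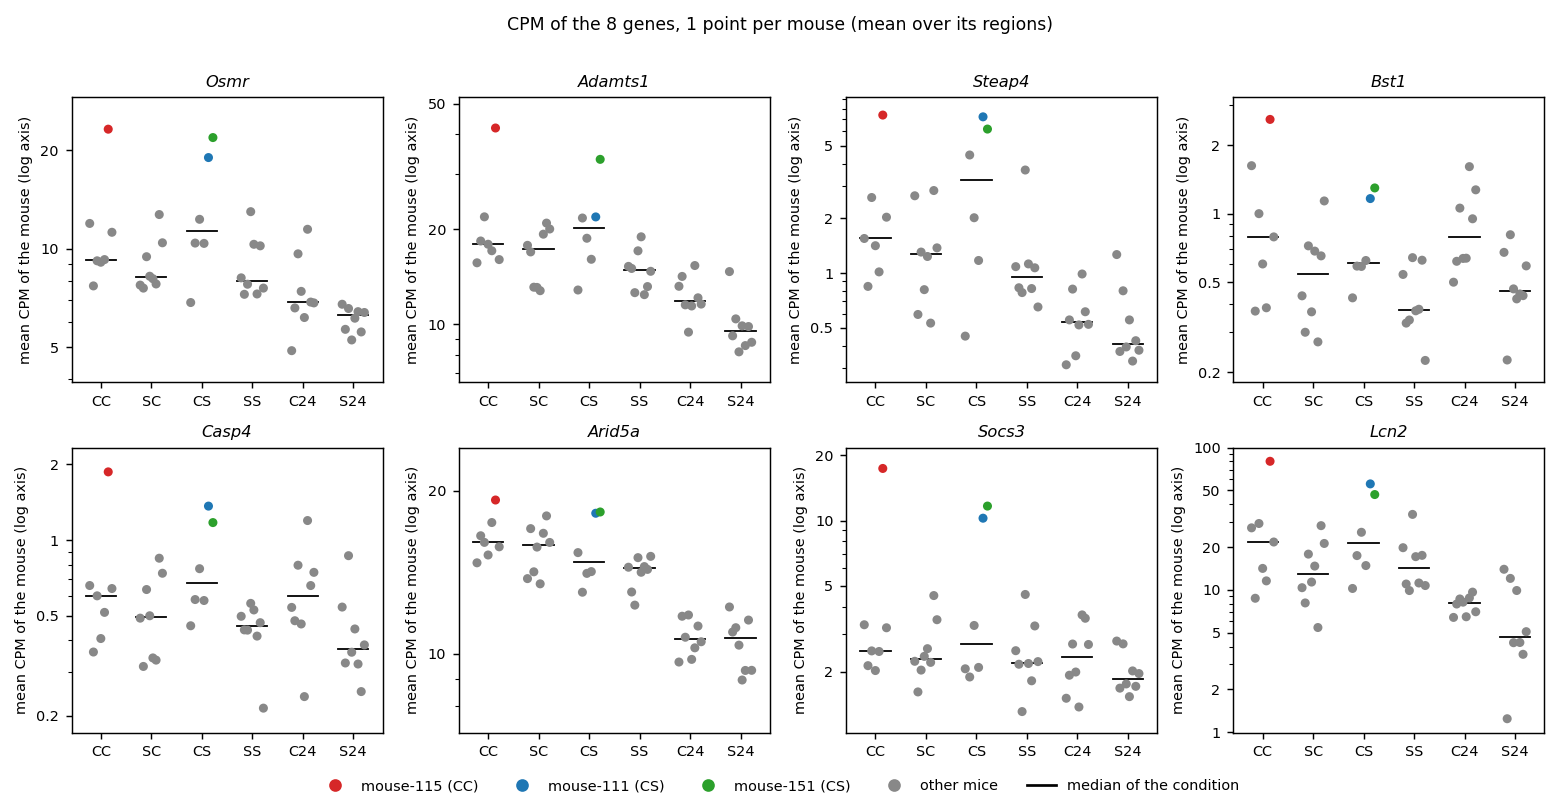
Each point is 1 mouse, its mean CPM (log axis) over its regions, for the 8 genes in the 6 conditions, with the median of a condition as a black line and mouse-115, mouse-111 and mouse-151 in colour. The coloured points lie above all grey ones for Osmr (19.0 to 23.2 CPM) and Socs3 (10.3 to 17.4 CPM). For Arid5a the C24 and S24 mice (at most 12.2 CPM) lie below all mice of the other conditions (at least 12.3 CPM).

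How far a gene is set by the mouse was measured by the intraclass correlation of its libraries: the share of the variance of log2 CPM that lies between mice, after the mean of each region and condition is removed. It was 0.76 for Socs3 (jackknife SE 0.11), 0.69 for Lcn2, 0.67 for Osmr, 0.62 for Bst1, 0.53 for Adamts1, 0.52 for Steap4, 0.49 for Casp4 and 0.25 for Arid5a (SE 0.069). The median over the 18927 genes was 0.026, and the 8 genes stood at the 95.7 to 99.9 percentiles. The fits that chose members used 1 consensus correlation of 0.0398 for all genes. Genes with a higher share are called more readily in such a fit. High percentiles of the members called there are therefore partly expected from the choice. Without mouse-111, mouse-151 and mouse-115 the shares were 0.51 for Socs3, 0.60 for Lcn2, 0.49 for Osmr, 0.52 for Bst1, 0.28 for Adamts1, 0.33 for Steap4, 0.36 for Casp4 and 0.20 for Arid5a, at the 94.3 to 99.7 percentiles of a gene median of 0.020. The agreement between the regions of a mouse was therefore present in the remaining 42 mice as well.

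**Figure D3:**
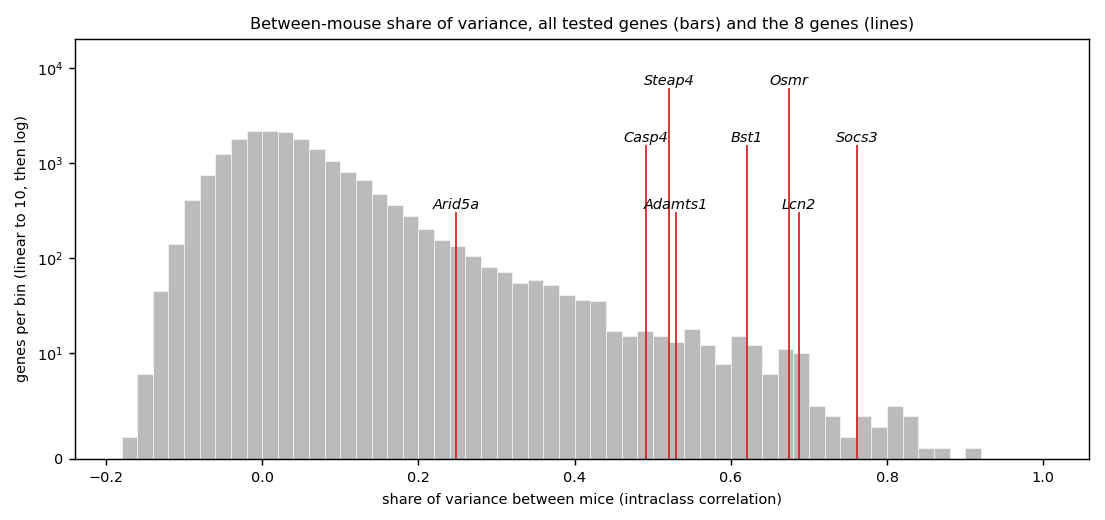
Histogram of the share of variance that lies between mice for all 18927 genes tested (bars, number of genes per bin, linear to 10 and then logarithmic), with the 8 genes as red lines. All 8 lie to the right of the bulk of genes, Arid5a at 0.25 and Socs3 at 0.76.

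Among mice of the same condition the genes varied together. After condition means were removed, Pearson r between pairs of the 7 genes other than Arid5a ran from 0.66 to 0.87 over the 45 mice (21 pairs, median 0.78), and from 0.54 to 0.78 without the 3 mice. Pairs with Arid5a had r of 0.34 to 0.66 (7 pairs, median 0.38) and 0.13 to 0.57 without them. These are descriptions: the values share libraries and depth. Of the 14694 genes with a mean of at least 1 CPM, the 10 most like Osmr were Tmem252 (r = 0.94, and 0.90 without the 3 mice), Cyyr1 (0.92), Grrp1 (0.89), Cd14 (0.88), Fas (0.88), Socs3 (0.87), Apobec3 (0.87), Srarp (0.86), Serpina3n (0.86) and Il4ra (0.85). The 10 most like the mean of the 8 genes were Cd14 (0.94, and 0.89 without the 3 mice), Socs3, Cyyr1, Tmem252, Osmr, Ifitm2, Grrp1, Sbno2, Il4ra and Steap4 (0.89), of which Socs3, Osmr and Steap4 are part of that mean. Cd14 encodes a lipopolysaccharide co-receptor, Fas a death receptor, Serpina3n a protease inhibitor and Il4ra an interleukin-4 receptor chain.

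The comparison of C24 with S24 mice asks whether the genes differ after 24 h of withdrawal, and its mice are in neither of the contrasts that chose them, although their libraries entered the spread of that fit. No member passed the test: limma on 1 value per mouse called 0 of 8 members and 0 of 18927 genes (0%), with 1369 genes and 1 member, Bst1, at an unadjusted p under 0.05. All 8 log2 differences were above 0, against 46.3% of all genes, with a median of 0.26 against -0.01 over all genes. The members vary together in the same mice, so the 8 are not separate observations. Bst1 was higher by 0.71 (SE 0.30, adjusted p = 0.630), with all 8 C24 mice above the S24 mean and 4 above every S24 mouse. In edgeR fits of single regions Bst1 was higher in 6 of 6, by 0.43 in the PFC to 1.04 in the vHipp. Casp4 was higher by 0.49 (SE 0.26, adjusted p = 0.719), Adamts1 by 0.29 (SE 0.16), Osmr by 0.23 (SE 0.19), Socs3 by 0.21 (SE 0.35) and Arid5a by 0.03 (SE 0.072). Lcn2 stood at 0.49 (SE 0.42) although no C24 mouse lay above every S24 mouse, and Steap4 at 0.18 (SE 0.41). In the edgeR fit of the vHipp alone Steap4 was at -0.89 (SE 0.85). There the highest S24 library was at 4.55 CPM, while the medians were 0.449 CPM in C24 and 0.378 CPM in S24. Without mouse-203 of C24, Osmr was at 0.14, Socs3 at 0.10 and Steap4 at 0.085, and without mouse-185 of S24 Lcn2 was at 0.20. In limma voom on the libraries with the mouse as replicate block, which uses 1 consensus correlation of 0.0398 for all genes where the share of Bst1 was 0.62, Bst1 was called (0.79, SE 0.19, adjusted p = 0.0151), the only member, where 0.851% of all genes were called. Endothelial markers lay above 0 in 10 of 10 genes in this comparison (median 0.17, none called, summed level 275 to 465 CPM in C24 and 266 to 332 CPM in S24). So did pericyte markers (7 of 7, median 0.15), microglia markers (10 of 10, median 0.12), oligodendrocyte markers (8 of 8, median 0.12) and red cell markers (6 of 6, median 0.35, summed level 73.6 to 530 CPM in C24 and 71.4 to 314 CPM in S24), while neuron markers lay below 0 in 7 of 7. None of these genes was called, and the part of these markers in the result was not tested.

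In edgeR fits of single regions 0 of 48 tests of a member were called for C24 minus S24, against 1 of 101684 tests over all genes (0.000983%), and 4 had an unadjusted p under 0.05, against 3.84% of the tests over all genes. For CC minus SC 0 of 48 were called, against 4 of 101684 (0.00393%), and 13 had an unadjusted p under 0.05, 6 of them in the CPu and 4 in the BLA, against 4.51% of the tests over all genes. The 48 tests are not separate, since the members vary together in the same mice. Mouse-115 was the highest CC mouse in 44 of its 48 pairs of library and member. CC mice also entered the choice of members, so the 13 cannot be read as support. Whether the difference varied between regions was put to an F test in limma voom on the libraries, with the mouse as replicate block. No member passed it: the lowest p of a member was 0.507 for CC minus SC and 0.534 for C24 minus S24. That fit used 1 consensus correlation of 0.0398, below the members' between-mouse shares of 0.25 to 0.76. Its errors for differences between regions are therefore too wide for these genes, and it cannot show that the regions were alike. These regional groups of 5 to 8 libraries leave wide errors.

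CC and SC mice differ in history but share the cocaine injection at 30 d. The CC mice also entered the CC minus SS fit that chose 3 of the genes, so this comparison is not fully separate from the choice. All 8 differences were above 0, against 44.4% of all genes, with a median of 0.42 against -0.01 over all genes. Here too the 8 are not separate observations. No member passed limma on 1 value per mouse (adjusted p from 0.459 to 0.749), where 50 genes were called (0.264%). With the mouse as block 58 genes were called (0.306%), again no member; Adamts1 came nearest with 0.35 (SE 0.097, adjusted p = 0.0901). In the fit of 1 value per mouse Adamts1 was higher by 0.36 (SE 0.17, adjusted p = 0.459), with 7 of 7 CC mice above the SC mean but 1 above every SC mouse. Lcn2 and Steap4 were higher by 0.73 (SE 0.44) and 0.71 (SE 0.43), Bst1 by 0.55 (SE 0.31), Socs3 by 0.47 (SE 0.36), Osmr by 0.32 (SE 0.20), Casp4 by 0.31 (SE 0.27) and Arid5a by 0.12 (SE 0.075). Leaving out mouse-115 alone brought Casp4 to 0.06 (SE 0.25), Socs3 to 0.07 (SE 0.32), Osmr to 0.15 (SE 0.19), Adamts1 to 0.18 (SE 0.15), Bst1 to 0.29 (SE 0.30), Steap4 to 0.38 (SE 0.42), Lcn2 to 0.40 (SE 0.43) and Arid5a to 0.08 (SE 0.075). Except for Arid5a, each value with all CC mice was over 1.5 times the value without mouse-115, and Arid5a was at 0.076 without mouse-043 of SC. Red cell markers lay above 0 in 6 of 6 genes in this comparison (median 1.01, summed level 45.2 to 522 CPM in CC and 4.56 to 104 CPM in SC) and heat shock genes in 11 of 11 (median 0.18). Choroid plexus markers lay below 0 in 9 of 9 (median -0.35) and oligodendrocyte markers in 8 of 8 (median -0.19). None of these genes was called, and their part in the result was not tested.

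CS minus SS, which chose most of the genes, is given without a test. The differences were 1.20 for Steap4 (SE 0.45), 0.85 for Lcn2 (SE 0.45), 0.82 for Bst1 (SE 0.33), 0.76 for Casp4 (SE 0.28), 0.72 for Socs3 (SE 0.38), 0.50 for Osmr (SE 0.21), 0.45 for Adamts1 (SE 0.18) and 0.14 for Arid5a (SE 0.078), with a median of 0.74. Without mouse-111 and mouse-151, and with mouse-115 left out of the shared spread, the median was 0.21. Bst1 and Casp4 were then at 0.42 (SE 0.32) and 0.43 (SE 0.27), Steap4 at 0.40 (SE 0.40), Osmr at 0.14 (SE 0.18) and Socs3 at -0.0040 (SE 0.27). The other contrasts share mice with this one and are values only. The median over the 8 genes was 0.52 for CC minus SS, 0.14 for SC minus SS and -0.18 for CC minus CS; in SC minus SS, mice without a cocaine history, the values ran from -0.07 for Lcn2 (SE 0.42) to 0.40 for Bst1 (SE 0.30).

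**Figure D4:**
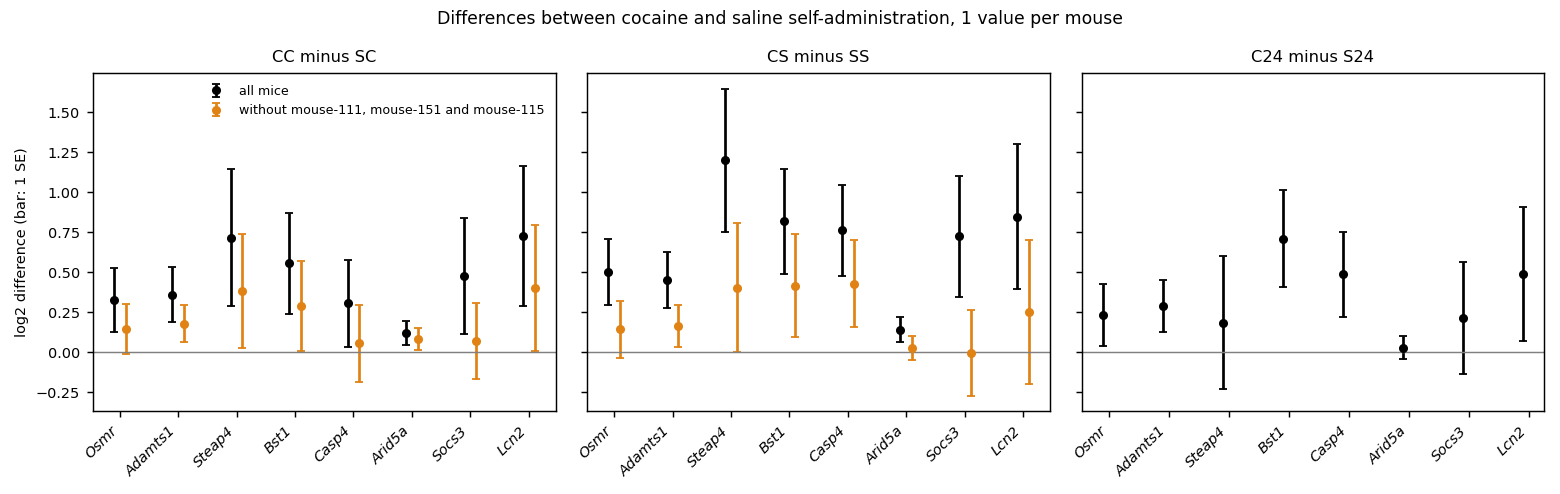
Log2 difference of each gene between cocaine and saline history (points, bars 1 SE), with all mice in black and without mouse-111, mouse-151 and mouse-115 in orange, for CC minus SC, CS minus SS and C24 minus S24. The orange points of Socs3 lie at 0.07 and -0.0040 where the black ones lie at 0.47 and 0.72, and the C24 panel, which holds none of the 3 mice, shows all mice only.

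Other transcript groups moved with the 3 mice. The 11 heat shock genes had mean log2 values of 1.04, 1.00 and 0.87 in mouse-115, mouse-151 and mouse-111, the 3 highest of 45, with all 3 mice in the top 3 for 9 of the 11 genes. Over conditions this score ran from -0.18 to 1.04 in CC against -0.51 to 0.47 in SC, and from 0.15 to 1.00 in CS against 0.04 to 0.70 in SS. The 7 tested neutrophil markers had mean values of 1.37, 0.74 and 0.70 in the same mice (ranks 1, 3 and 4), led by S100a8 (2.76, 1.62 and 1.45) and S100a9 (2.60, 1.62 and 1.65). The other tested markers were mixed. Cxcr2 stood at 1.60, 0.98 and 1.33, and Ngp at 2.12, 0.73 and 0.29. Camp stood at 0.39, 0.39 and 0.36, and Csf3r at 0.26, 0.004 and 0.28. Mpo lay below 0 in all 3 mice (-0.12, -0.15 and -0.46). Summed over the tested markers, the level was 10.1 to 23.9 CPM in CC against 10.1 to 14.4 in SC, and 9.60 to 16.9 CPM in CS against 10.9 to 16.2 in SS. The defining neutrophil genes Ly6g and Elane were below the filter, with 75 and 37 counts in all 230 libraries together, of which the 16 libraries of the 3 mice held 21 and 8. The glucocorticoid-responsive list ranked 1, 2 and 4 in these mice, with 0.43, 0.36 and 0.31. Endothelial markers ranked 25, 42 and 37, with summed levels of 339, 289 and 301 CPM against 293 to 318 CPM in SS. Single endothelial markers went both ways in these mice. Cldn5 stood at -0.73, -0.88 and -0.73 and Tek at -0.33, -0.33 and -0.29. Flt1 stood at 0.50, 0.25 and 0.36 and Ly6c1 at 0.44, 0.29 and 0.18. Microglia markers ranked 1, 35 and 20 with values of 0.21, -0.05 and 0.03. Astrocyte markers ranked 3, 18 and 1 with values of 0.10, 0.01 and 0.13. The part of any of these in the members' values was not tested, and in tissue pieces more cells of a type and more RNA per cell cannot be told apart.

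Of the interleukin-6 family ligand genes, Lif, Il11, Clcf1 and Ctf1 passed the filter. None of these 4 was called in C24 minus S24 or CC minus SC, and none had the 3 mice as its top 3. Osm, the ligand itself, did not pass the filter: it had 637 counts in 230 libraries, at most 10 in one, and 22 libraries at 0, and the 16 libraries of the 3 mice held 67 of these counts. Il6 had 307 counts, with 74 libraries at 0. Of the 7 receptor genes none was called in either comparison. Besides Osmr, the interleukin-6 receptor gene Il6ra had the 3 mice on top, at 0.40, 0.41 and 0.47 in mouse-115, mouse-151 and mouse-111, while the shared chain Il6st stood at 0.04, 0.23 and 0.22 and the leukaemia inhibitory factor receptor gene Lifr at 0.01, 0.11 and 0.15. The largest receptor difference other than Osmr was that of Il31ra, 0.31 in C24 minus S24 (SE 0.18, adjusted p = 0.741) and -0.15 in CC minus SC (SE 0.19, adjusted p = 0.833). Il31ra averaged only 0.135 CPM, so its values carry large counting error. Among 7 JAK and STAT genes none was called, the largest difference being that of Stat5a (-0.25 in CC minus SC, SE 0.10, adjusted p = 0.359). Stat3 had the 3 mice as its top 3 with small values of 0.14, 0.14 and 0.16.

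The 18 feedback and target genes of STAT3, with Socs3 among them, had 15 differences above 0 and a median of 0.04 in C24 minus S24, and 12 above 0 and a median of 0.04 in CC minus SC, none called in either. In C24 minus S24 the largest were Bcl3 (0.54, SE 0.29, adjusted p = 0.714) and Icam1 (0.47, SE 0.23, adjusted p = 0.685); in CC minus SC, after Socs3, it was Il4ra (0.31, SE 0.19, adjusted p = 0.595). In 7 of the 18 genes the 3 mice were the top 3. Named after their values were seen, they were Socs3, Bcl3 (1.89, 1.59 and 1.48 in mouse-115, mouse-151 and mouse-111), Cebpb, Cebpd (1.55, 0.92 and 0.94), Pim1, Pim3 and Il4ra (1.42, 0.83 and 0.96). Of 13 pan-reactive astrocyte genes, Lcn2 and Steap4 among them, 0 were called and 13 and 9 differences lay above 0 in C24 minus S24 (median 0.16) and CC minus SC (median 0.20); the 3 mice were the top 3 in 5. The astrocyte filament gene Gfap stood at 0.16, 0.57 and 0.31 in the 3 mice. Of 11 genes of the A1 astrocyte set none had the 3 mice on top. Iigp1 and Gbp2, interferon-induced GTPase genes of that set, had its largest C24 minus S24 differences (1.20, SE 0.35 and 1.09, SE 0.30, adjusted p = 0.457 each). The 13 genes of the A2 set had the 3 mice on top in 3, and Cd14 and Slc10a6 its largest CC minus SC differences (0.37, SE 0.28, adjusted p = 0.696 and 0.37, SE 0.24, adjusted p = 0.628). Slc10a6 averaged only 0.112 CPM.

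Of 11 inflammasome and inflammatory caspase genes, Casp4 among them, 0 were called; 11 and 6 differences lay above 0 in C24 minus S24 (median 0.14) and CC minus SC (median 0.01). Casp1, the caspase of the classical inflammasome, was at 0.46, -0.12 and -0.04 in mouse-115, mouse-151 and mouse-111, where Casp4 was at 1.69, 1.01 and 1.28. Of 15 tested NF-kB and interleukin-17 target genes 0 were called, and the endothelial adhesion genes Selp and Sele had the largest CC minus SC differences (1.03, SE 0.64, adjusted p = 0.603 and 0.97, SE 0.58, adjusted p = 0.588). Of 12 relatives of the members, none was called and 1 had the 3 mice on top, Adamts9 (0.97, 1.16 and 0.60). Adamts4 and Adamts5 did not share the pattern (-0.69, 0.17 and -0.35; 0.12, -0.29 and -0.22), nor did Arid5b (-0.26, 0.21 and 0.25) or the Steap relatives Steap2 and Steap3 (-0.19, 0.21 and 0.20; 0.22, 0.01 and -0.05). Cd38, the relative of Bst1, stood at 0.38, 0.32 and 0.25.

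SS and S24 mice both had a saline history, and they differ in time and in the saline injection with its setting, which cannot be told apart. The mouse numbers also form separate series, mouse-011 to mouse-162 in SS and mouse-182 to mouse-225 in S24. A difference between these sets of animals can therefore not be told apart from time or injection either. All 8 SS mice lay above all 8 S24 mice for Osmr (log2 values -0.34 to 0.50 in SS, -0.65 to -0.36 in S24) and for Arid5a (-0.11 to 0.14 in SS, -0.60 to -0.15 in S24), 2 of 8 members against 565 of 18927 genes (2.99%). The median difference over the 8 genes was 0.46, against -0.01 over all genes. Lcn2 was higher in SS by 1.32, Steap4 by 0.95, Adamts1 by 0.55, Socs3 by 0.23 and Casp4 by 0.07, all with overlapping mice. Bst1 was lower by 0.23 in SS. Heat shock genes also lay apart, at scores of 0.04 to 0.70 in SS and -0.67 to -0.22 in S24. So did immediate early genes, at scores of 0.003 to 0.48 in SS and -1.27 to -0.33 in S24. The part of either list was not tested.

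The regions differed for all 8 genes in at least some pairs. Region levels were not used to choose the genes; edgeR with the mouse as block called 74.7% of all gene and pair tests, so a called pair is common here. Of 15 region pairs, 13 were called for Bst1 and for Arid5a, 12 for Adamts1 and for Socs3, 11 for Osmr and for Lcn2, 9 for Steap4 and 3 for Casp4 (edgeR quasi-likelihood test, Benjamini-Hochberg adjustment within a pair). The clearest order was that of Adamts1, with 28.0 ± 10.96 CPM in the vHipp (SD, n = 39 libraries), 19.2 ± 7.35 in the PFC (n = 41), 15.9 ± 5.58 in the VTA (n = 31), 10.8 ± 6.77 in the CPu (n = 42), 10.2 ± 5.44 in the BLA (n = 38) and 9.96 ± 6.18 in the NAc (n = 39). The vHipp was above the PFC by 0.59 (adjusted p = 2.79e-15), the PFC above the VTA by 0.20 (adjusted p = 0.00722) and the VTA above the CPu by 0.67 (adjusted p = 1.37e-16), while CPu, BLA and NAc did not separate (adjusted p = 0.331 and 0.678 for the neighbours).

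Osmr was highest in the vHipp, at 11.5 ± 4.63 CPM, above the CPu by 0.34 (adjusted p = 2.19e-08). It averaged 9.46 ± 4.69 CPM in the CPu, 8.76 ± 3.56 in the VTA, 8.57 ± 4.34 in the PFC, 8.43 ± 4.39 in the BLA and 8.10 ± 4.07 in the NAc, where CPu and VTA did not separate (adjusted p = 0.683), nor did PFC, BLA and NAc (adjusted p = 0.839 and 0.720 for the neighbours). Socs3 had another order: 4.51 ± 3.17 CPM in the PFC and 3.95 ± 3.32 in the BLA, with the PFC above the BLA by 0.23 (adjusted p = 0.00927), then 3.19 ± 2.99 in the vHipp, 2.66 ± 3.50 in the CPu, 2.32 ± 2.77 in the NAc and 2.14 ± 2.76 in the VTA, of which the last 3 did not separate. Receptor and feedback gene thus ranked the regions differently.

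Arid5a was highest in the vHipp and PFC, at 17.7 ± 4.40 and 17.0 ± 3.99 CPM (difference 0.09, adjusted p = 0.0455), then 13.9 ± 2.45 in the BLA, 11.5 ± 2.34 in the VTA, 10.9 ± 3.06 in the NAc and 10.4 ± 2.52 in the CPu. Lcn2 had medians of 16.7 CPM in the VTA, 11.3 in the vHipp, 11.3 in the NAc, 9.79 in the PFC, 9.66 in the CPu and 6.99 in the BLA; the BLA was below the PFC by 0.44 (adjusted p = 0.00301), and VTA and vHipp did not separate (adjusted p = 0.879). Bst1 averaged 0.989 ± 0.547 CPM in the VTA, 0.971 ± 0.685 in the CPu and 0.809 ± 0.538 in the NAc, against 0.585 ± 0.468 in the vHipp, 0.470 ± 0.489 in the BLA and 0.449 ± 0.376 in the PFC. The VTA was above the PFC by 1.27 (adjusted p = 1.97e-19). Steap4 had medians of 1.39 CPM in the VTA and 0.947 in the vHipp against 0.584 in the BLA, while in the fit with the mouse as block VTA minus vHipp was -0.37 (adjusted p = 0.0400), against the order of the medians. Casp4 had medians of 0.614 CPM in the VTA and 0.410 to 0.546 elsewhere, with no neighbours in its order apart.

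**Figure D5:**
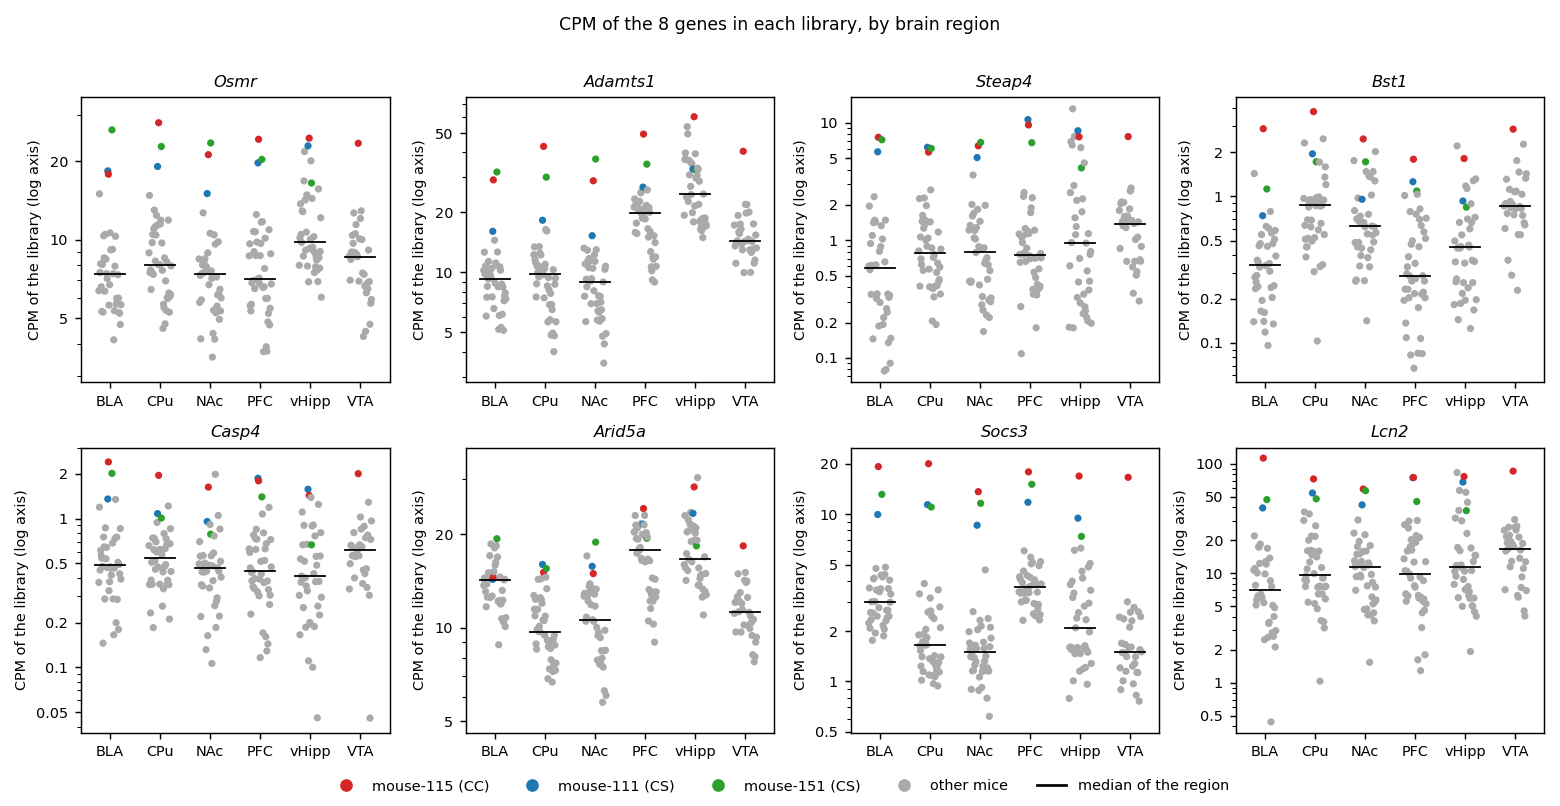
CPM of each library (log axis) by region for the 8 genes, with the median of a region as a black line and the libraries of mouse-115, mouse-111 and mouse-151 in colour. Adamts1 is highest in the vHipp (median 24.7 CPM) and lowest in the NAc (8.95 CPM), and for Osmr and Socs3 the coloured points lie at or near the top of every region.

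Over region and condition combined, the highest mean of Osmr was 14.6 ± 5.27 CPM in the vHipp of CS mice (SD, n = 6) and the lowest 5.25 ± 1.37 CPM in the PFC of S24 mice (n = 7). Socs3 ran from 7.73 ± 5.39 CPM in the PFC of CS mice (n = 5) to 1.16 ± 0.315 in the VTA of S24 mice (n = 6). Its PFC median in CS was 4.58 CPM, with mouse-111 and mouse-151 at 11.8 and 15.1 CPM. Lcn2 ran from 39.4 ± 36.9 CPM in the vHipp of CC mice (n = 5) to 4.60 ± 2.20 in the BLA of C24 mice (n = 6). By median the Lcn2 order differed: the vHipp was at 16.05 CPM in CC (10.37 to 83.01) and at 30.99 CPM in SS. Mouse-115 had 76.33 CPM there. Adamts1 and Arid5a were highest in the vHipp of CC mice, at 42.9 ± 13.8 and 23.3 ± 3.07 CPM (n = 5), and lowest in the NAc of S24 mice, at 5.70 ± 1.57 and 7.59 ± 1.48 CPM (n = 8). Steap4 ran from 5.04 ± 4.91 CPM in the vHipp of CS mice to 0.265 ± 0.193 in the BLA of S24 mice, Casp4 from 1.07 ± 0.557 in the PFC of CS mice to 0.311 ± 0.190 in the NAc of SS mice, and Bst1 from 1.46 ± 0.801 in the VTA of CC mice to 0.182 ± 0.103 in the PFC of SS mice. By median Bst1 in the VTA was lower in CC, at 1.12 CPM (mouse-115 at 2.87), than in C24, at 1.38 CPM.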

How the data were processed

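RNA from 6 brain regions of 45 mice was made into libraries after ribosomal RNA depletion, per the labels' protocols, and the authors deposited whole-number read counts per Ensembl gene for each library; HTSeq, limma and mm10 are named in the submitters' processing notes. The aligner, annotation release and strand setting are not given in the sources used here. Of 43346 identifiers, 42462 were matched to GENCODE M21 symbols. Genes were kept by filterByExpr (minimum count 10, minimum total 15). The main test was limma 3.58.1 on 1 value per mouse (TMM log2 CPM with a prior count of 2, as the average over a mouse's regions of values centred within region) with all 6 conditions in 1 fit and adjusted p over 18927 genes. Single regions and the 15 region pairs were tested with edgeR 4.0.16 (quasi-likelihood, the pairs with the mouse as a fixed block), and alternatives used limma voom and DESeq2 1.42.0. A call is an adjusted p under 0.05. Steps were tested on simulated data.

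The mouse numbers of the titles were taken as animals: libraries of different regions with the same number had a median correlation of their deviations from group means of 0.067 (486 pairs), against -0.010 for different numbers of the same condition. Where nothing more says that numbers are separate animals, p-values measure the spread between these numbers. The members and lists were chosen with earlier results of these data known. The written design held CC minus SC to share no mouse with the choice; since CC minus SS also chose members, that does not hold. From each list, genes past an adjusted p of 0.05 in CC minus SC or C24 minus S24 were to be named, and otherwise the 2 with the largest absolute difference in the contrast described, with the 10 genes most like Osmr and the 10 most like the mean of the members; others were chosen after their values were seen. A listed gene is not reported here.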

Additional observations from a re-analysis of the deposited data

Results flagged for a closer look

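Within the conditions the mouse values of the 8 genes were searched for a mouse far from the others by Dixon's criterion, and 6 of 48 sets of mice held one. Chance gives about 1 in 20 in separate sets. These sets are not separate, because the genes vary together in the same mice. CS, CC and SS mice also entered the choice of the genes. The count can therefore not be set against that rate. Mouse-115 of CC was far above the next CC mouse for 4 genes: Socs3 (2.78 against 0.27), Steap4 (2.81 against 1.01), Casp4 (1.69 against 0.21) and Adamts1 (1.55 against 0.42), all as log2 CPM relative to the regional mean. Mouse-073 of SS was far above the other SS mice for Steap4 (1.75 against 0.12). Mouse-162 of SS was far below the others for Casp4 (-1.08 against -0.35). In CS, mouse-111 and mouse-151 lay together, so that neither stood alone. The cause of these values was not tested.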

How the results depend on the processing

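Of 352 values of single members recomputed under other settings, 351 kept their direction; Arid5a in C24 minus S24 was reversed without mouse-201 of S24 (-0.0058 in place of 0.03), and ran up to 0.059 with another mouse left out. Members were past the threshold under other settings 3 times: Bst1 in C24 minus S24 in limma voom with the mouse as replicate block (0.79, adjusted p = 0.0151) and with no replicate block (0.78, adjusted p = 0.00890), and Adamts1 in CC minus SC with no replicate block (0.35, adjusted p = 0.0460). With no block the libraries of 1 mouse count as separate replicates. Those p-values are too small for Bst1 and Adamts1, whose between-mouse shares were 0.62 and 0.53. Of all genes tested, C24 minus S24 called 0.851% with the block and 1.18% with no block in place of 0%, and CC minus SC called 0.645% with no block and 0.161% with no filter on low counts in place of 0.264%. It called 2.95% after 21 libraries (19 of SC, 2 of CS) with over 1 CPM of the gene Gm20594 were left out. With 1 mouse left out it called 0.164% (without mouse-144 of SC) to 0.507% (without mouse-053 of CC), and 0.169% without mouse-074 or mouse-145 of CC. Alternatives without the 3 mice or those libraries were chosen after seeing the data. The median of the members in CS minus SS was 0.21 without the 3 mice in place of 0.74, and 0.52 to 0.91 with 1 mouse left out; their median between-mouse share was 0.427 in place of 0.575.

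In single regions, CC minus SC called 0 genes in the BLA in place of 1 and 0 in the NAc in place of 2, with no filter on low counts and in limma voom; 1 in the NAc, 1 in the CPu, 2 in the vHipp and 2 in the VTA in DESeq2; 0 in the VTA in limma voom; 1 in the PFC with no filter; and 1 to 2 in the NAc and 0 to 2 in the VTA with 1 library left out. C24 minus S24 called 1 in the NAc and 7 in the PFC in DESeq2, and 0 in the VTA in limma voom in place of 1. Of 15 region pairs with no replicate block 5 were called for Osmr in place of 11, 4 for Lcn2 in place of 11 and 0 for Casp4 in place of 3. The causes were not tested. Counting error limits Steap4, Bst1 and Casp4, and the groups of 5 to 8 libraries limit the regional tests.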

Other observations

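Genes outside the 8 moved with the same mice, given here as values chosen after they were seen. The leukocyte adhesion genes of activated endothelium Selp and Sele had log2 values of 4.04 and 2.96 in mouse-115, 4.08 and 2.89 in mouse-151, and 3.33 and 2.03 in mouse-111. The small heat shock protein gene Hspb1 stood at 1.94, 1.49 and 1.47, and Hspa1b, a stress-induced chaperone, at 2.46, 2.33 and 2.29. The acute-phase gene Saa3, at a mean of 0.0599 CPM, stood at 2.65, 1.26 and 1.13, and the cytokine gene Il1b, at 0.248 CPM, at 1.46, 0.99 and 0.97. Ch25h, which encodes cholesterol 25-hydroxylase, stood at 1.57, 1.28 and 0.68. Among glucocorticoid-responsive genes Tsc22d3 stood at 0.72, 0.63 and 0.51, while Per1 stood at -0.14, -0.01 and 0.07. The choroid plexus markers ranked 43, 38 and 40 of 45 mice in this order, and the oligodendrocyte markers 44, 23 and 43.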
